A study of Mus musculus with 187 samples.

Results

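The genes of the translation initiation factors were followed through 186 single mouse embryos. Members were all features whose symbol begins with Eif1 to Eif6, without the Eif2c and Eif2ak genes, whose names share the prefix but which are Argonaute proteins and kinases. This gave 51 genes: 50 of the 23534 features of the 4-cell table, 48 of the 8805 genes of the table of 2-cell embryos injected with tRNA fragments (tRFs), and 48 of the 8735 genes of the table of 2-cell embryos injected with sperm RNA. All 3 tables list 47 of them.

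All embryos were of the FVB strain and arose by in vitro fertilisation, both parents having been kept on a control diet. Zygotes received RNA 2 h after fertilisation and were collected singly. At the 4-cell stage, 27 embryos had received an antisense oligonucleotide to tRF-GlyGCC (antisense) and 28 had received mRNA of H3.3-GFP (GFP). At the 2-cell stage, collected 32 h after fertilisation, 26 embryos had received a tRF-GlyGCC oligonucleotide with modified bases, 6 had received tRF-GluCTC and 11 had received GFP mRNA, while 46 had received sperm small RNA of low protein-fed males and 42 that of control males. Only GFP-positive embryos were taken, so the GFP mRNA may have been present in every group. The labels name neither litter nor sperm donor, so all p-values set differences against the spread of single embryos only. One table of the authors names the 4-cell injected group tRFGGunmod, where the labels name the antisense oligonucleotide. The labels were followed, and which RNA was injected there is uncertain.

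Initiation brings the ribosome to the start codon. The cap-binding complex eIF4F (the cap-binding protein eIF4E, the helicase eIF4A and the scaffold eIF4G) recruits the small subunit, which carries eIF1, eIF1A, eIF3, eIF5 and the initiator tRNA held by eIF2. eIF2B recharges eIF2 with GTP, eIF5B joins the large subunit, eIF6 keeps free large subunits apart and eIF5A acts chiefly in elongation. The early embryo translates stored maternal mRNAs before it transcribes its own, and oocytes carry a cap-binding form of their own, eIF4E1B.

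A pyrimidine run at the transcription start is a known feature of mRNAs whose translation follows mTOR signalling. RefSeq promoter windows (GRCm38.p6) were found for 39 of the 51 members, and 4 of these 39 (10.3%) had a run of at least 8 C or T letters over the annotated start, on the gene's strand, against 4.59% of 27025 genes. They are shown together with Eif2s3y, the Y-linked copy of Eif2s3x, whose run begins just after its annotated start. Each window covers 40 bases before the start and 20 from it, 5′ to 3′ on the gene's strand, with the longest pyrimidine run near the start in capitals.
Eif3f: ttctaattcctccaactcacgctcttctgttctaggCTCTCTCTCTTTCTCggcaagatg
Eif3l: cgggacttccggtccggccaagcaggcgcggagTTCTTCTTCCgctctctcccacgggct
Eif2b5: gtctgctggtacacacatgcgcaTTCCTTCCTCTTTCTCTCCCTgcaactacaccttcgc
Eif2s3x: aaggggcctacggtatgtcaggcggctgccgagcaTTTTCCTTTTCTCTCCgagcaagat
Eif2s3y: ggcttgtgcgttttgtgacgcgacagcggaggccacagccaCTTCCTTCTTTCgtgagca
These windows lie at chr7:108934375-108934434 (plus strand), chr15:79075183-79075242 (plus), chr16:20498777-20498836 (plus), chrX:94212632-94212691 (minus) and chrY:1010555-1010614 (plus). The runs of Eif3f and Eif2s3x are 15 and 16 bases long. Runs were counted on both sides of the annotated start, and in Eif3l and Eif2b5 most of the run lies before it, outside the transcribed bases. A run in this window is a description of the letters and shows no mTOR-dependent translation in these embryos.

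The 2-cell embryos held median totals of 1.81 to 2.29 M counts per group, with single embryos between 0.644 M and 4.56 M. FPKM keep no depth; at 1 FPKM or more stood 6644 to 11496 features in antisense embryos and 9155 to 10610 in GFP embryos of the 4-cell stage. All 8 oocyte-deposited and all 8 2-cell-stage marker genes were listed in every table. The 11 cumulus or granulosa and 7 sperm markers were not among the genes of the 2-cell tables. At the 4-cell stage the granulosa markers summed to at most 3.47 FPKM with antisense and 2.86 with GFP, and the sperm markers to at most 17.2 FPKM with antisense and 10.6 with GFP. The end codes of the embryo titles were taken as batches: the sperm RNA embryos had 6, lettered from A, the tRF embryos 2, G and H, and the 4-cell embryos had those from J to R, with GFP embryos only in R. Whole embryos were lysed, so fewer cells and less RNA per cell cannot be told apart.

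At the 4-cell stage the levels of the initiation factors spanned 3 orders of magnitude. In GFP embryos the mean ran to 1337 ± 249 FPKM for Eif5a (SD, n = 28), above 99.8% of all features. Eif6 (715 ± 210 FPKM), the cap-binding Eif4e (687 ± 178), the helicase Eif4a1 (661 ± 184) and the start-codon factor Eif1 (556 ± 130) followed, and each differed from the next by less than the SD over embryos. At the low end, among members with a mean of at least 1 FPKM, stood Eif2s3y, Eif4g3 (11.2 ± 3.10), Eif4e1b (7.63 ± 5.54), Eif4e3 (5.23 ± 3.29) and Eif5a2 (2.55 ± 2.07). Eif4ebp3, an inhibitor of eIF4E, was at 0 in the median embryo of both groups and reached at most 3.0 FPKM with antisense and 2.95 FPKM with GFP.

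**Figure D1:**
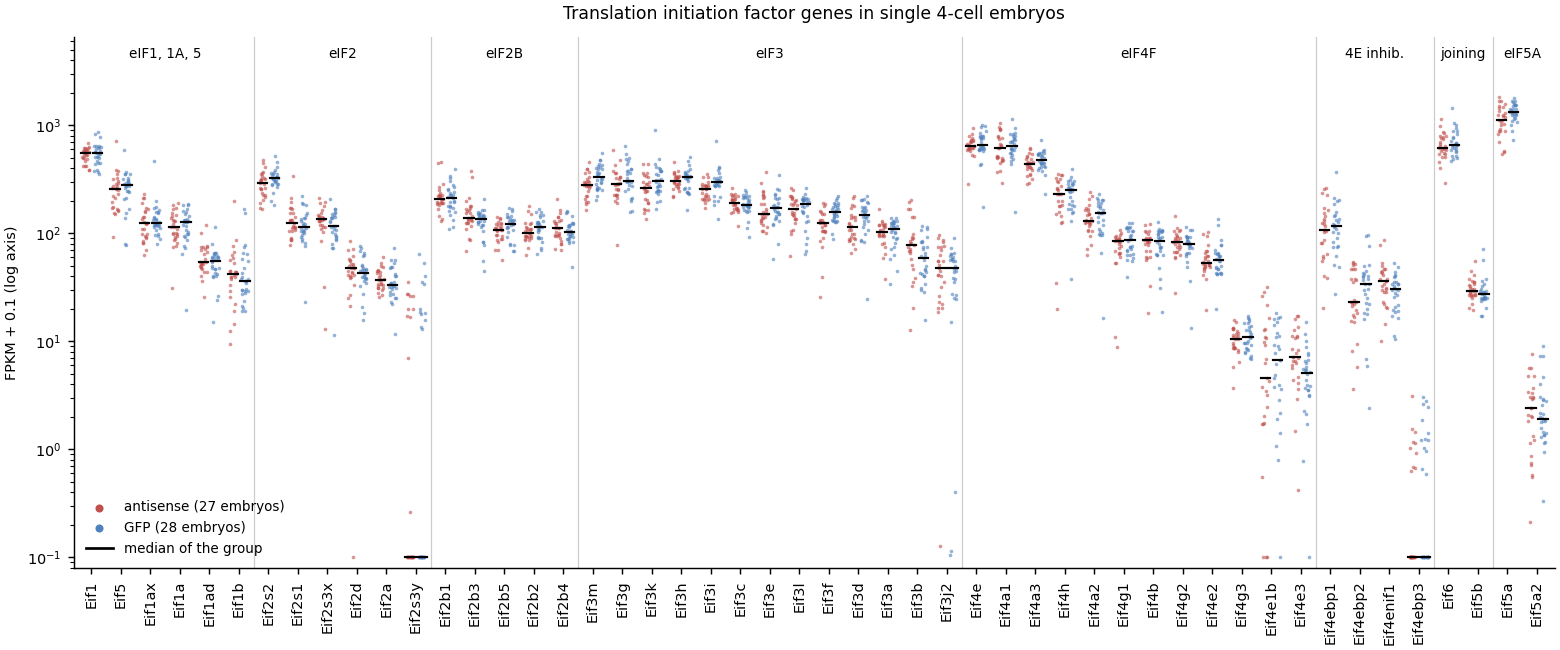
FPKM + 0.1 (log axis) of the 50 initiation factor genes in the 4-cell table, one dot per embryo, antisense left and GFP right, grouped by role, with the group median as a bar. Most genes lie in one narrow band in both groups, Eif2s3y splits into embryos with and without it, and Eif3j2 has a few embryos near 0.

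At the 4-cell stage the antisense embryos gave nearly the same order. Eif6 had a lowest, median and highest level of 294, 615 and 1132 FPKM with antisense and 471, 662 and 1435 FPKM with GFP, and Eif4a1 had 290, 612 and 1057 FPKM with antisense and 159, 645 and 1142 FPKM with GFP. Eif4e1b reached 32.1 FPKM with antisense and 18.2 FPKM with GFP, and was at 0 in at least 1 embryo of each group. The helicase of the exon junction complex, Eif4a3, had a median of 438 FPKM with antisense and 475 FPKM with GFP, below Eif4a1 and above Eif4a2 (129 FPKM with antisense and 154 FPKM with GFP).

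Within paralog families, 1 gene usually carried most of the RNA per length. Eif5a stood 505-fold above Eif5a2 in 4-cell GFP embryos, Eif4e 87.4-fold above Eif4e1b, Eif1 12.1-fold above Eif1b and Eif4a1 4.47-fold above Eif4a2. Eif1ax and the autosomal Eif1a were level there (ratio 1.12), whereas at the 2-cell stage Eif1ax was at 0.299 of Eif1a. Eif1ax ends at chrX:159385699 in the 4-cell table and at chrX:159389621 in the reference annotation. A difference in transcript length can thus enter the change between these 2 ratios, and its part was not tested. Eif4g2 was at 0.879 of Eif4g1 at the 4-cell stage and 2.34-fold above it at the 2-cell stage. The minor forms Eif5a2 and Eif4e1b were relatively more abundant at the 2-cell stage, where Eif5a stood 139-fold above Eif5a2 and Eif4e 2.52-fold above Eif4e1b. Eif4e, too, ends at different places, chr3:138557599 in the 4-cell table and chr3:138559696 in the reference annotation. The 13 listed eIF3 subunits ran between 43.8 FPKM (Eif3j2) and 344 FPKM (Eif3m) in the mean, although they form one complex. Eif3j1 and Eif3j2 are near-identical copies: the 2-cell tables list only Eif3j1, and the 4-cell table lists only Eif3j2, at the position where RefSeq places Eif3j1, so that reads of both copies cannot be told apart. Eif3j2 lay between 0.0277 and 96.1 FPKM in antisense embryos and between 0.00576 and 89.8 FPKM in GFP embryos.

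The stages were set side by side in GFP embryos, per transcript length and scaled to the same total over the 8488 genes that both tables share and that have a transcript length. Stage, table, unit and counting method change together here and cannot be told apart, so no test was made. Of 47 members, 31 (66.0%) had a higher mean at the 4-cell stage, against 34.2% of all shared genes. The eIF3 subunits (11 of 12 higher, median ratio 2.91) and the eIF2B subunits (4 of 5, median ratio 2.94) made up much of this. The 5 members whose embryo ranges did not overlap and that were higher at the 4-cell stage, a pattern of 3.39% of shared genes, were Eif1ax, Eif2s2, Eif3f, Eif3k and Eif3m. These ranges rest on 11 2-cell GFP embryos. In the 2-cell sperm RNA embryos, per length, Eif2s2 reached 521 with low protein sperm RNA, above the lowest 4-cell GFP embryo (440). Eif1ax, Eif3f, Eif3k and Eif3m did not overlap with those embryos either. Eif1ax, the X-linked copy of eIF1A, averaged 265 ± 77.2 at the 4-cell stage and 31.6 ± 11.9 at the 2-cell stage, on this per-length scale (SD, n = 28 and 11). Its 2-cell level was divided by 5172 bases. The gene ends at chrX:159385699 in the 4-cell table and at chrX:159389621 in the reference annotation. A difference in transcript length can thus enter its ratio and its lack of overlap, and the part of this was not tested.

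The 5 members with the lowest ratios of 4-cell to 2-cell level were Eif4e3, Eif4e1b, Eif4enif1, Eif4g2 and Eif5a2. The 12 genes of eIF4F and its cofactors were grouped by name and include Eif4a3 of the exon junction complex. Of these 12, 6 had a higher and 6 a lower mean at the 4-cell stage. Eif4e3, a distant cap-binding relative of eIF4E, had a lowest, median and highest level of 0, 8.64 and 23.8 at the 4-cell stage, against 39.2, 179 and 375 at the 2-cell stage, a 17.2-fold lower mean. Eif4e1b had 0, 11.4 and 41.1 at the 4-cell stage and 34.4, 134 and 942 at the 2-cell stage, a 14.8-fold lower mean. Eif4e1b is the cap-binding protein of oocytes; its 2 ranges overlapped. Eif4enif1, which encodes 4E-T, an eIF4E-binding protein of repressed mRNPs, was 5.18-fold lower. Eif4g2, the scaffold without a binding site for eIF4E, was 3.48-fold lower. Eif5a2 was 3.12-fold lower, with overlapping ranges. Such falls were common: 43.7% of shared genes were over 2-fold lower (1 added to each mean), against 5 of 47 members. Among shared genes, ordered from the lowest ratio, Eif4e3 and Eif4e1b stood at percentiles 5.25 and 6.48. Eif4enif1, Eif4g2 and Eif5a2 stood at 21.4, 29.5 and 34.5. Eif4e3, Eif4enif1 and Eif4g2 were the 3 members that were lower without overlap, a pattern of 13.7% of shared genes. Eif4e itself was 2.35-fold higher in mean at the 4-cell stage, and 25 of 28 4-cell embryos exceeded the highest 2-cell GFP embryo. In the 2-cell sperm RNA embryos, per length, Eif4e reached 1381 with low protein and 1091 with control sperm RNA. The median 4-cell GFP embryo was at 1384. Its 2-cell level was divided by 4991 bases. The gene ends at chr3:138557599 in the 4-cell table and at chr3:138559696 in the reference annotation. A difference in transcript length can thus enter this ratio and this count, and its part was not tested. The eIF4E inhibitors Eif4ebp1 (4.04-fold) and Eif4ebp2 (5.38-fold) also had higher means at the 4-cell stage, with overlapping ranges. Several highly expressed members stood almost level in the mean, among them Eif5a (1.17-fold at the 4-cell over the 2-cell stage), Eif1 (1.17-fold), Eif4a3 (1.12-fold) and Eif4b (0.977-fold).

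**Figure D2:**
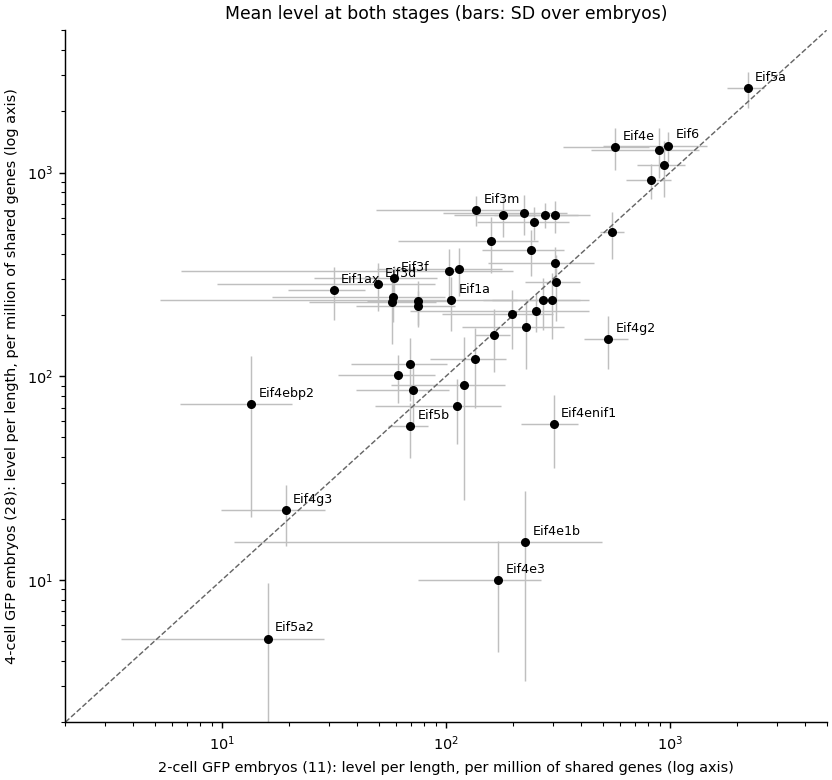
Mean level of 47 initiation factor genes in 4-cell GFP embryos (vertical) against 2-cell GFP embryos (horizontal), both per length and scaled to the same total over the shared genes, on log axes, with the SD over embryos as bars and equality dashed. Eif4e3, Eif4e1b and Eif4enif1 lie far below the line, and Eif1ax, Eif3f and Eif3m lie above it.

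Injection of low protein against control sperm RNA asked whether the father's diet reaches the embryo through sperm small RNA. No initiation factor passed the adjusted threshold of 0.05 in edgeR's quasi-likelihood test (0 of 48; DESeq2 also called 0), where 8 of 8721 genes did (0.0917%). At an unadjusted p under 0.05 stood 1 of 48, against 3.99% of all genes. Estimates were higher for 32 of 48, against 53.9% of all genes, with a median log2 fold change of 0.03, against 0.02 over all genes. The 1 gene was Eif5b, the GTPase that joins the ribosomal subunits. Its lowest, median and highest values were 47.5, 209 and 385 CPM (counts scaled to library size) with low protein sperm RNA and 42.8, 170 and 439 CPM with control sperm RNA. The ranges overlapped almost wholly, 33 of 46 low protein embryos lay above the control median, and the log2 fold change was 0.34 (SE 0.14; p = 0.0145, adjusted p = 1.00, edgeR with Benjamini-Hochberg adjustment). The difference was positive in each of the 6 batches, from 0.08 in batch C to 1.79 in batch D (2 low protein embryos and 1 control embryo). Eif5b was named for its p in these same embryos, so the signs by batch give no separate support. In the same comparison all 8 of 8 2-cell-stage markers had lower estimates (median −0.31, 2 at an unadjusted p under 0.05, 0 called), with sums of 806 to 8346 CPM with low protein sperm RNA and 1758 to 13045 CPM with control sperm RNA, and 5 of 8 oocyte-deposited markers did (median −0.08). The part of these markers was not tested.

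Eif1b (44.1 CPM in the median low protein embryo and 41.3 in the median control embryo) and Eif4e3 (127 and 134 CPM) had the next smallest p among higher estimates. Eif1, Eif4g2 and the helicase cofactor Eif4b led the lower ones. The medians of Eif4e3 ran against its estimate of 0.24 (SE 0.19), and its highest low protein embryo reached 900 CPM, against 500 CPM for the highest control embryo. For all 48 members the 95% confidence interval of the log2 fold change lay within ±1, and for 35 it lay within ±0.5.

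With tRF-GlyGCC against GFP, edgeR called 0 of 48 members and 0 of 8804 genes (0.0%), and DESeq2 called 0 of each. An unadjusted p under 0.05 was found for 4 of 48 members, against 3.24% of all genes (285 of them; 409 by DESeq2). Higher estimates were found for 28 of 48, against 55.0%, with a median of 0.10, against 0.04 over all genes. Eif5, which makes eIF2 hydrolyse its GTP at the start codon, had 736, 1137 and 2058 CPM (lowest, median, highest) with tRF-GlyGCC and 720, 880 and 1016 CPM with GFP. Of the tRF-GlyGCC embryos 21 of 26 lay above the GFP median, and the log2 fold change was 0.44 (SE 0.17; p = 0.0100, adjusted p = 1.00, edgeR). Eif3i (median 129 CPM with tRF-GlyGCC, against 105 CPM with GFP) and Eif2b1 (239 and 170 CPM) had estimates of 0.46 (SE 0.22) and 0.44 (SE 0.21).

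On the lower side, 1 member had an unadjusted p under 0.05, the eIF4F scaffold Eif4g1. It had 60.7, 283 and 694 CPM with tRF-GlyGCC, against 158, 502 and 820 CPM with GFP, and only 3 of 26 tRF-GlyGCC embryos lay above the GFP median (log2 fold change −0.60, SE 0.29; p = 0.0454, adjusted p = 1.00, edgeR). These levels and this count pool both batches. In GFP embryos Eif4g1 averaged 9.12 in batch G (n = 6) and 8.25 in batch H (n = 5), on the log2(CPM + 1) scale. The estimates of Eif4g2 and Eif4g3 were −0.21 (SE 0.14) and −0.51 (SE 0.33). All 3 differences were negative in both batches, and those of Eif5, Eif3i and Eif2b1 were positive in both. The genes were named for their p in these same embryos, so the signs by batch give no separate support. The ranges of the groups overlapped for all 6 genes. Intervals within ±1 were reached for 34 members and within ±0.5 for 3.

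The tRF-GluCTC group had 6 embryos, all of 1 batch, and shares its GFP embryos with the comparison above. No member (0 of 48) and no gene (0.0% of 8804) passed the adjusted threshold in edgeR; DESeq2 called 0 members and 1 gene. An unadjusted p under 0.05 was found for 1 of 48 members, against 3.46% of all genes, and higher estimates for 32 of 48, against 49.6%, with a median of 0.09, against −0.01. The 1 gene was Eif5a2, the minor form of eIF5A, with 22, 41.1 and 260 CPM with tRF-GluCTC and 6.20, 21.7 and 90.3 CPM with GFP. All 6 tRF-GluCTC embryos lay above the GFP median, the ranges overlapped, and the log2 fold change was 1.30 (SE 0.62; adjusted p = 1.00, edgeR). Within batch H, the batch of these 6 embryos, the difference on the log2(CPM + 1) scale was 0.59.

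Eif5 (median 1106 CPM with tRF-GluCTC and 880 CPM with GFP, estimate 0.48, SE 0.24) and the eIF4E inhibitor Eif4ebp1 (78.6 and 44.2 CPM, estimate 1.05, SE 0.62) followed on the higher side. Within batch H the differences on the log2(CPM + 1) scale were 0.43 for Eif5 and 0.22 for Eif4ebp1. Eif4g1 had 53.4, 198 and 454 CPM with tRF-GluCTC and 158, 502 and 820 CPM with GFP, and none of the 6 embryos (0 of 6) lay above the GFP median (estimate −0.58, SE 0.45). Eif4g2 likewise had 0 of 6 above it (−0.31, SE 0.22), and the estimate of Eif4g3 was −0.56 (SE 0.51). The GFP median pools batches G and H, whereas all 6 tRF-GluCTC embryos are of batch H. Differences within batch H were −0.83 for Eif4g1, −0.23 for Eif4g2 and −1.42 for Eif4g3. Only 16 of 48 intervals lay within ±1 and 0 within ±0.5, so a difference of 2-fold lay within the interval of most members.

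Between the tRFs, with tRF-GlyGCC over tRF-GluCTC, edgeR called 0 of 48 members and 0.0% of 8804 genes, and DESeq2 called 0 members and 1 gene. No member had an unadjusted p under 0.05 by edgeR and 1 had one by DESeq2, against 2.2% of all genes by edgeR. Higher estimates were found for 20 of 48, against 54.4%, with a median of −0.02, against 0.05. Eif1 came nearest: 257, 400 and 796 CPM with tRF-GlyGCC, against 265, 498 and 687 CPM with tRF-GluCTC, an estimate of −0.37 (SE 0.20). The estimates of Eif5a2 (−0.73, SE 0.54) and Eif1ax (−0.41, SE 0.32) were lower too. Those of Eif4e3 (0.54, SE 0.40), Eif4ebp2 (1.31, SE 0.98) and Eif1b (0.38, SE 0.44) were higher. Eif4ebp2, another eIF4E inhibitor, was nearly absent, with a median of 5.69 CPM with tRF-GlyGCC, against 0.696 CPM with tRF-GluCTC. Intervals lay within ±1 for 26 members.

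By role, the counts of higher estimates differed between these comparisons. Of 13 eIF3 subunits, 7 had higher estimates with low protein sperm RNA (median log2 fold change 0.01), 9 with tRF-GlyGCC (0.19), 8 with tRF-GluCTC (0.03) and 6 with tRF-GlyGCC over tRF-GluCTC (−0.02). Of the 12 genes grouped with eIF4F and its cofactors, Eif4a3 of the exon junction complex among them, these counts were 9 (0.05), 5 (−0.14), 7 (0.03) and 6 (0.00). Of the 6 genes grouped by name with eIF1, eIF1A and eIF5, Eif1ad among them, 4 had higher estimates with low protein sperm RNA, 5 with tRF-GlyGCC and 5 with tRF-GluCTC. Of the 5 eIF2B subunits, 4 had higher estimates with low protein sperm RNA, 1 with tRF-GlyGCC and 3 with tRF-GluCTC. Of the 5 tested eIF2 subunits and related factors, 3 had higher estimates with low protein sperm RNA, 3 with tRF-GlyGCC and 4 with tRF-GluCTC. Not one of these members passed the adjusted threshold (0 called), and the tRF comparisons share embryos.

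**Figure D3:**
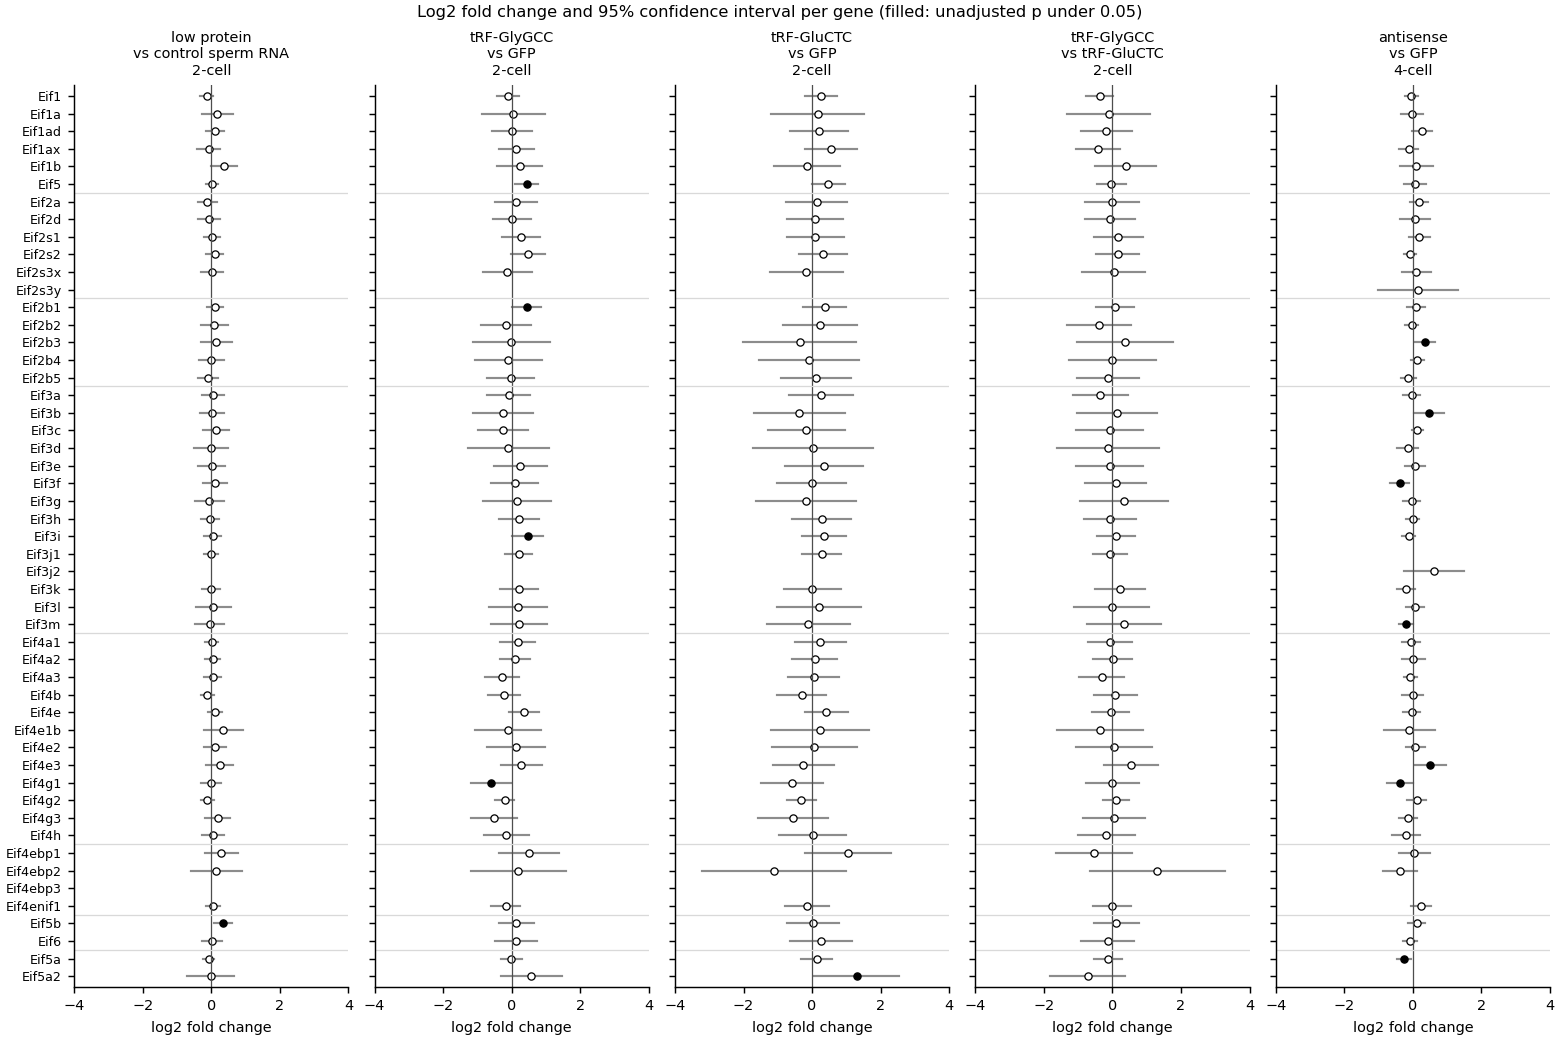
Log2 fold change (point) and 95% confidence interval (line) of each initiation factor gene in the 5 comparisons, ordered by role, with filled points for an unadjusted p under 0.05; genes not listed or not tested in a table have no point. The points lie around 0 in every panel, and the lines are widest where 6 tRF-GluCTC embryos enter.

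Going by the labels, antisense against GFP at the 4-cell stage addressed any tRF-GlyGCC already present in the zygote, which was not measured here. Of 50 members, 48 reached the mean of 5 FPKM needed for the test (not Eif4ebp3 and Eif5a2). limma on log2(FPKM + 1) called 0 of 48, against 2 of 7237 features (0.0276%), and the smallest adjusted p of a member was 0.248. An unadjusted p under 0.05 was found for 7 of 48 members (3 higher, 4 lower), against 10.9% of all features. Higher estimates were found for 24 of 48, against 52.7%, with a median of 0.00, against 0.01. Fold changes on this scale understate those of low genes. Stage markers also had mostly higher estimates in the same comparison: of the oocyte-deposited markers 8 of 8 had higher estimates with antisense (median log2 fold change 0.42, 3 at an unadjusted p under 0.05, 0 called), and of the tested 2-cell-stage markers 5 of 6 did (median 0.83, 4 at an unadjusted p under 0.05, 0 called). The oocyte-deposited markers summed to 121 to 603 FPKM with antisense (median 330) and to 140 to 1034 FPKM with GFP (median 261). All 8 2-cell-stage markers summed to 523 to 3807 FPKM with antisense (median 1156) and to 548 to 3692 FPKM with GFP (median 1092). Their part in the differences of the initiation factors was not tested.

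The eIF3 subunits did not lean to one side, with 6 higher and 7 lower estimates. Eif3f had 25.9, 124 and 190 FPKM with antisense and 87.6, 157 and 223 FPKM with GFP. Against the GFP median, only 5 of 27 antisense embryos were higher, and the log2 fold change was −0.39 (SE 0.14; p = 0.00816, adjusted p = 0.248, limma). The difference was negative in 6 of 7 batches, among the same embryos that gave this p, so the signs give no separate support. Eif3m had medians of 280 FPKM with antisense and 335 FPKM with GFP (−0.21, SE 0.10; 5 of 27 above the GFP median). Eif3b stood on the other side with 12.5, 77.9 and 204 FPKM with antisense and 15.6, 59.3 and 117 FPKM with GFP (0.47, SE 0.21; adjusted p = 0.384, limma). The ranges of both groups overlapped for all 3 genes.

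The eIF2 subunits and related factors (5 of 6 higher, median 0.12) and the genes of eIF4F and its cofactors (4 of 12 higher, median −0.04) had 0 and 2 members at an unadjusted p under 0.05. The remaining 4 were Eif5a, Eif2b3, Eif4e3 and Eif4g1. Eif5a had 545, 1131 and 1812 FPKM with antisense and 724, 1322 and 1782 FPKM with GFP (−0.26, SE 0.10; adjusted p = 0.276, limma). Eif2b3, a subunit of the exchange factor eIF2B, had 68.0, 138 and 377 FPKM with antisense and 45.1, 135 and 207 FPKM with GFP (0.35, SE 0.14). Its medians lay close together, and the antisense embryos reached further up. Eif4e3 had 0.320, 7.06 and 17 FPKM with antisense and 0, 4.96 and 15 FPKM with GFP (0.51, SE 0.22), and 20 of 27 antisense embryos exceeded the median GFP embryo. The oocyte-deposited markers, with 8 of 8 higher estimates, lay on the same side, and their part was not tested. With low protein sperm RNA, Eif4e3 also had a higher estimate, whereas 5 of 8 oocyte-deposited markers had lower ones. Eif4g1 had medians of 84.5 FPKM with antisense and 87.2 FPKM with GFP (−0.37, SE 0.18), with 1 antisense embryo at 8.77 FPKM. Intervals lay within ±1 for 46 members and within ±0.5 for 32.

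In the authors' deposited table of this comparison, 0 of 51 initiation factor rows were marked significant, 48 of them tested, against 72 of 6465 tested rows (1.11%) in the same authors' deposited table. The smallest q-values in the authors' deposited table were 0.184 for Eif3b (103 FPKM injected and 73.2 FPKM control) and 0.223 for Eif3f (140 FPKM injected and 187 FPKM control). Of the other genes with a pyrimidine run, the estimates of the limma test were 0.06 (SE 0.13) for Eif3l, −0.13 (SE 0.10) for Eif2b5 and 0.10 (SE 0.21) for Eif2s3x, against −0.39 (SE 0.14) for Eif3f. Without batch P the estimates of Eif3l and Eif2s3x were −0.038 and −0.049.

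Eif2s3y was either present or near 0 from embryo to embryo at the 4-cell stage. It encodes the Y-linked form of the eIF2 gamma subunit, which binds the initiator tRNA. Eif2s3y was at 1 FPKM or more in 10 of 27 antisense embryos (6.90 to 35.4 FPKM) and in 12 of 28 GFP embryos (12.9 to 64.4 FPKM), and at most 0.165 FPKM in the other 33. Of these 22 embryos, 20 also had the Y-linked Ddx3y at 1 FPKM or more, against 1 of the other 33. Xist, the RNA that coats the inactive X chromosome, was at 1 FPKM or more in 1 of the 22 and in 20 of the other 33. The 2 embryos with Eif2s3y and without Ddx3y were both antisense, and 1 of them had the fewest features of all (6644). Eif2s3x, the X-linked copy, was between 12.9 and 189 FPKM where Eif2s3y was present (median 112) and between 11.3 and 212 FPKM where it was not (median 139). Over all embryos Eif2s3y averaged 8.27 ± 11.9 FPKM with antisense and 12.3 ± 18 FPKM with GFP. The 2-cell tables list neither Eif2s3y nor these companions.

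**Figure D4:**
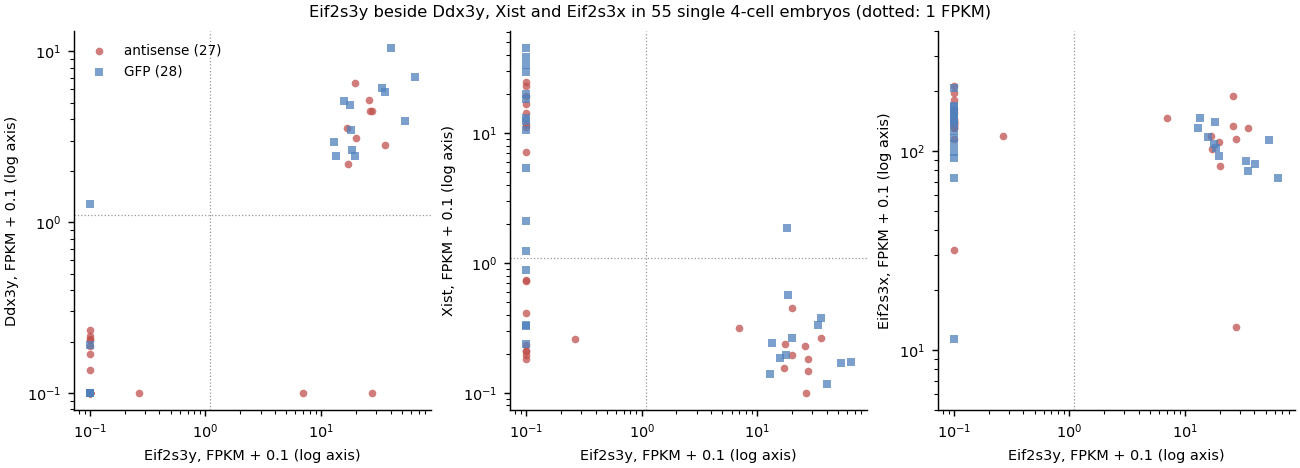
Ddx3y, Xist and Eif2s3x (vertical) against Eif2s3y (horizontal), all FPKM + 0.1 on log axes, in 27 antisense (circles) and 28 GFP (squares) 4-cell embryos, with 1 FPKM dotted. Embryos with Eif2s3y lie high for Ddx3y and low for Xist, with 2 antisense embryos at 0 for Ddx3y, while Eif2s3x covers overlapping ranges in both.

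After group and batch means were removed, the SD between embryos differed widely among members. Major forms were the steadiest in the sperm RNA table, where Eif5a varied by 0.32 on the log2 scale, less than 99.8% of the genes in its decile of level, followed by Eif5 (0.36), Eif4g2 (0.39) and Eif1 (0.39). The widest were Eif5a2 (1.55), Eif4ebp2 (1.53), Eif3l (1.46), Eif1a (1.37) and Eif4e1b (1.30). In the tRF table the widest were Eif2b4 (1.90), Eif2b3 (1.81), Eif1a (1.76), Eif3d (1.76) and Eif3g (1.69). At the 4-cell stage they were Eif2s3y (2.13), Eif3j2 (1.57), Eif4e1b (1.36), Eif4ebp2 (0.88) and Eif1b (0.84). The median member varied by 0.74 in the sperm RNA table, against 1.11 over all genes, by 0.92 against 1.19 in the tRF table and by 0.47 against 0.69 at the 4-cell stage. Spread falls with level in such data, and 17, 16 and 18 of the 48 members were in the top decile of level in these 3 tables. Within its own decile the median member stood at percentile 35, 52.7 and 29.8 in the same order.

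At the 2-cell stage members moved together from embryo to embryo in a pattern that set Eif4e1b, the cap-binding protein of oocytes, against many others. After group and batch means were removed, Eif4e1b and Eif6 were negatively correlated over the 88 sperm RNA embryos (Pearson r = −0.74, Spearman rho = −0.73) and over the 43 embryos of the tRF table (r = −0.76, rho = −0.76). Without the 2 embryos farthest from the median, r was −0.72 and −0.66. Eif6 and Eif3g had r = 0.89 and 0.87 in the same tables, and Eif3c and Eif4e1b had −0.69 and −0.77. Of the 1128 pairs of 48 members, 19 were at −0.5 or below in both tables, and 13 of these 19 involved Eif4e1b. Another 114 pairs were at 0.5 or above in both. The share of all gene pairs past these cuts was not computed, so whether these counts are unusual cannot be said. Eif4e1b ran with Eif4e3 (0.57 and 0.71) and with Eif4enif1 (0.59 and 0.54), which were also lower at the 4-cell stage. It ran against its major form Eif4e (−0.61 and −0.60). The named pairs were chosen after their values were seen, and embryos of 1 table share their processing and scaling, so r is given as a description with no p.

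The eIF3 subunits had a median pairwise r of 0.37 in the sperm RNA table and 0.62 in the tRF table, against 0.00 and 0.01 over all pairs of genes. Some other roles lay above all pairs of genes there. The eIF2 subunits and related factors had 0.40 and 0.48, the eIF2B subunits 0.29 and 0.40, and eIF4F and its cofactors 0.11 and 0.13. The group of eIF1, eIF1A and eIF5 did not (−0.01 and −0.05), nor did the eIF4E inhibitors and transporter (−0.10 and −0.21). Over all members the median was 0.13 and 0.26. All pairs of genes were not matched to the members for level. At the 4-cell stage the median was 0.16 within eIF3, 0.18 within eIF4F and its cofactors and 0.29 within eIF2B, against 0.04 over all pairs. It was 0.06 within eIF2 and related factors, 0.02 within eIF1, eIF1A and eIF5, and −0.07 within the eIF4E inhibitors and transporter. Over all members it was 0.06. Eif4e1b and Eif6 had r = −0.35 over 55 embryos. The mean level of the 8 oocyte-deposited markers moved with Eif4e1b (r = 0.70 in the sperm RNA table and 0.55 in the tRF table) and against Eif6 (−0.60 and −0.66). The total count had r = −0.19 and −0.17 with Eif4e1b and 0.22 and 0.30 with Eif6. The number of features detected had r = 0.05 and −0.23 with Eif4e1b and 0.11 and 0.35 with Eif6 at the 2-cell stage, and 0.55 with Eif4e1b and −0.50 with Eif6 at the 4-cell stage. Over all 48 members of the tRF table its median r was 0.31 (highest 0.70), against 0.16 (highest 0.42) for the total count. The part of these markers, of detection and of depth in the pattern was not tested.

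**Figure D5:**
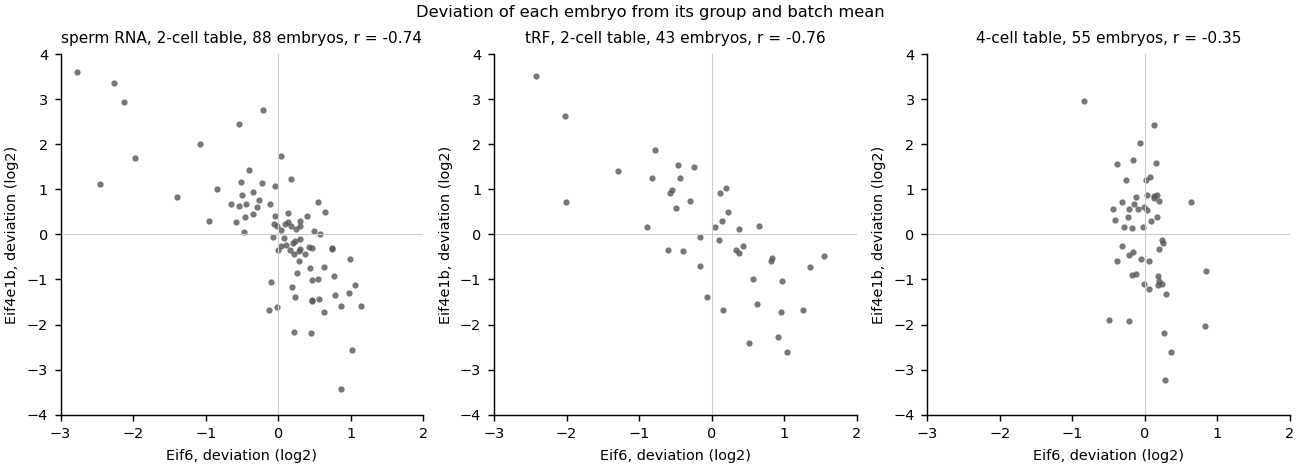
Deviation of Eif4e1b (vertical) and Eif6 (horizontal) from the group and batch mean of each embryo, on the log2 scale, in the 3 tables. Embryos low in Eif6 are high in Eif4e1b in both 2-cell tables, and the 4-cell embryos span less of the Eif6 axis.

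Of the neighbouring genes of the pathway (eIF2 kinases and phosphatase subunits, poly(A)-binding proteins, mTOR and MNK control, elongation, termination and the enzymes of eIF5A hypusination), 37 of 40 were tested at the 2-cell stage and 30 of 40 at the 4-cell stage, and 0 were called in any of the 5 comparisons by edgeR or limma. Unadjusted p under 0.05 were found for 2 higher and 2 lower genes with low protein sperm RNA, 1 higher with tRF-GlyGCC, 2 higher with tRF-GluCTC, 0 between the tRFs, and 3 higher and 1 lower with antisense. Over all features these shares were 3.99%, 3.24%, 3.46%, 2.2% and 10.9% in the same order. Eef1a1, the elongation factor that delivers tRNAs, averaged 695 ± 257 CPM with low protein sperm RNA and 878 ± 399 CPM with control sperm RNA (SD, n = 46 and 42; log2 fold change −0.33, SE 0.12). Paip2, an inhibitor of poly(A)-binding protein, averaged 196 ± 75.4 CPM with tRF-GlyGCC, 217 ± 141 CPM with tRF-GluCTC and 122 ± 27.1 CPM with GFP, with estimates of 0.69 (SE 0.22) and 0.84 (SE 0.31) against the shared GFP embryos. With antisense, Ppp1r15a, a phosphatase subunit that reactivates eIF2, averaged 110 ± 106 FPKM against 57.1 ± 28.7 FPKM with GFP (0.76, SE 0.24; adjusted p = 0.180, limma). Eef1b2 averaged 103 ± 49.1 FPKM with antisense and 153 ± 56.8 FPKM with GFP (−0.50, SE 0.15; adjusted p = 0.180, limma).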

How the data were processed

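Each library came from 1 embryo, made by a single-cell method with Nextera tagmentation according to the labels' protocols. Bowtie and mm10 are named in the submitters' processing notes. The counter and annotation: not given in the sources used here. Both 2-cell tables hold expected counts deposited by the authors, with 0 shown as 0.1, and list only part of all genes. Of the values above 0, 85.2% and 85.4% were whole. The 4-cell table holds FPKM deposited by the authors, with 0 shown as 0.001 and no depth. The authors' deposited comparison has group FPKM with a p-value and a q-value, copied as they stand.

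Expected counts were rounded and tested with edgeR 4.0.16 (R 4.3.3), using TMM, filterByExpr and the quasi-likelihood test. Batch, read from the end code of each title, was a term, and the 3 groups of the tRF table shared 1 fit. For FPKM, limma 3.58.1 was run on log2(FPKM + 1) with trend, robust moderation and batch; features averaging under 5 FPKM were left out. All tests were two-sided. Benjamini-Hochberg adjustment covered every feature of a table, at a threshold of 0.05. Both tests were also run on simulated data, drawn gene by gene without batch effects. The embryos have batches and genes that vary together, so that run does not show how the tests perform on them. CPM are TMM-scaled. Stage levels divide CPM by the mean length of the matched GENCODE M21 transcripts. The 4-cell FPKM were taken as deposited, and gene ends there differ for some genes, such as Eif1ax and Eif4e. Alternatives covered DESeq2 1.42.0, scaling, filter, pseudocount, batch term, block and left-out embryos or batches. Of 28 antisense embryos in the labels, 1 was not analysed here.

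The members and lists were chosen with earlier results of these data known. Named genes were the 3 of smallest p in each direction per comparison, the paralog families, the 5 highest and 5 lowest at the 4-cell stage with a mean of at least 1 FPKM and, per table, the 5 of widest spread. Eif4enif1, Eif3c, Eif4g1 with antisense and the genes with a pyrimidine run, and those without overlap between stages, were named after their values were seen.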

Additional observations from a re-analysis of the deposited data

Results flagged for a closer look

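Within the 6 tRF-GluCTC embryos, 34 named members were checked for a single embryo far from the others, a check that chance meets in about 1 of 20 groups. Eif3m met it: its lowest embryo had 18.1 CPM, against 61.7 CPM for the next.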

How the results depend on the processing

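No initiation factor was called under any alternative run, and the median log2 fold change of the members stayed between 0.01 and 0.07 (low protein), 0.06 and 0.17 (tRF-GlyGCC), 0.02 and 0.15 (tRF-GluCTC), −0.02 and 0.02 (between the tRFs) and −0.04 and 0.05 (antisense). The smallest adjusted p of a member was 0.0817, for Eif4e3 with antisense by limma; over its alternatives it ran to 0.745. For the 3 members of smallest p in each direction per comparison, and for Eif4g1 and Eif2b5 with antisense, all alternatives run kept the direction of the estimate. With antisense, Eif3l (−0.038) and Eif2s3x (−0.049) turned below 0 without batch P, and the cause was not tested. The counts over all genes moved, and the cause was not tested. For low protein sperm RNA, where the count was 8, they were 18 with DESeq2, 16 with no batch term, 14 without batch A, 15 without batch C, and 0 without batch E, without batch F or without the 2 control embryos of lowest total. With the replicate block (batch and the F number of the titles, which no label ties to an animal) the count was also 0, and members called stayed at 0; in the tRF comparisons the block gave 0 calls too. For antisense, a replicate block of batch and the number at the start of the titles, added after seeing the data, called 2 genes and 0 members, with a median member estimate of −0.02; no label ties this number to an animal. DESeq2 called 1 gene with tRF-GluCTC and 1 between the tRFs. For antisense, where the count was 2, they were 10 without the 2 antisense embryos of lowest detection, 1 without batch L, 4 without batch M, 4 without batch P and 0 without batch Q. Depth limits the 4-cell values in an unknown way, since FPKM keep none, and 6 tRF-GluCTC embryos leave wide intervals.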
